A study of Glycine max with 2 samples.

Results

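The sites described here are 2913 peaks of the soybean (Glycine max) transcription factor YAB1-like that lay in the middle stretches of 19 chromosomes. They were chosen by position alone: a peak was included when its summit, the base of highest signal, fell above 33.3% and at or below 66.7% of the length of its chromosome up to the last peak. Chromosome 13 was left out. The 2913 sites were 9.26% of the 31461 peaks in the list and 10.1% of the 28958 peaks on these 19 chromosomes. The outer stretches, used for comparison, held 13544 peaks in the first part and 12501 in the last part of the same chromosomes. The series was a chromatin immunoprecipitation with sequencing (ChIP-seq) of cultivar Williams 82. Whole seeds 1.0 to 1.5 mm long with globular-stage embryos were fixed with 1% formaldehyde for 10 min, and the chromatin was precipitated with 10 µg of a rabbit antibody made to a YAB1-like peptide. The peaks came from 1 ChIP library, replicate 1. The input library of replicate 1 was total chromatin of the same kind of seeds, without antibody, and no file of it was used here.

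YABBY proteins are plant transcription factors with a zinc finger and a YABBY domain that binds DNA. In Arabidopsis they are best known for setting the lower side of leaves and floral organs and for the growth of the blade. An early seed holds a small embryo, endosperm and a maternal seed coat, and chromatin from whole seeds mixes all of these. Soybean chromosomes commonly have gene-rich arms around a long, repeat-rich and gene-poor stretch near the centromere. Gene annotation and centromere positions on the build of the peak list were not used here, so the middle stretches are defined by position and by nothing else. Occupancy by the protein is taken from the peak calls, without a check of the antibody.

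Values for each site were few fragments over a low control. The median site in the middle stretches had 19 ChIP fragments stacked over its summit (95% exact Poisson interval 11.4 to 29.7) and the lowest on 12 (6.20 to 20.96). The expected pileup, the number of fragments that the peak caller's control predicted at the summit, had a median of 3.32 fragments. The caller's fragment length is not stated, and the smallest peak width, 246 bp, was taken for it. On that assumption, 12.5 ChIP reads and 26.0 control reads had been kept per kb of the genome size that the caller was set to. All sites had been called from the same library, so the intervals describe counting error in that library, and the chromosomes are parts of it rather than biological replicates. The fragments were amplified by PCR and carry no molecular identifiers, so they are not independent molecules. Each pileup was read at a summit that had passed the caller's cutoff, and the strongest sites were picked for their fold, so their values may be overstated.

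Sites were thinly spread in the middle stretches, at 9.69 per Mb over 300.7 Mb, against 45.0 per Mb in the first and 41.6 per Mb in the last stretches. The outer stretches together were 4.47 times as dense. This contrast was known when the stretches were chosen, so it is described and not tested. On every one of the 19 chromosomes the middle stretch was sparser than the outer stretches, and its density was between 0.136 of theirs on chromosome 2 and 0.414 on chromosome 8. The number of sites in a middle stretch ran from 93 on chromosome 16 through a median of 130 to 331 on chromosome 8. Per Mb, chromosome 4 was the sparsest at 5.73, followed by chromosome 19 at 6.09 and chromosome 10 at 6.17, and chromosome 8 was the densest at 20.8, followed by chromosome 7 at 16.1. The mean over chromosomes was 9.82 ± 3.87 sites per Mb (SD, 19 chromosomes), while the outer stretches had 43.9 ± 7.15, with no overlap between their ranges.

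**Figure D1:**
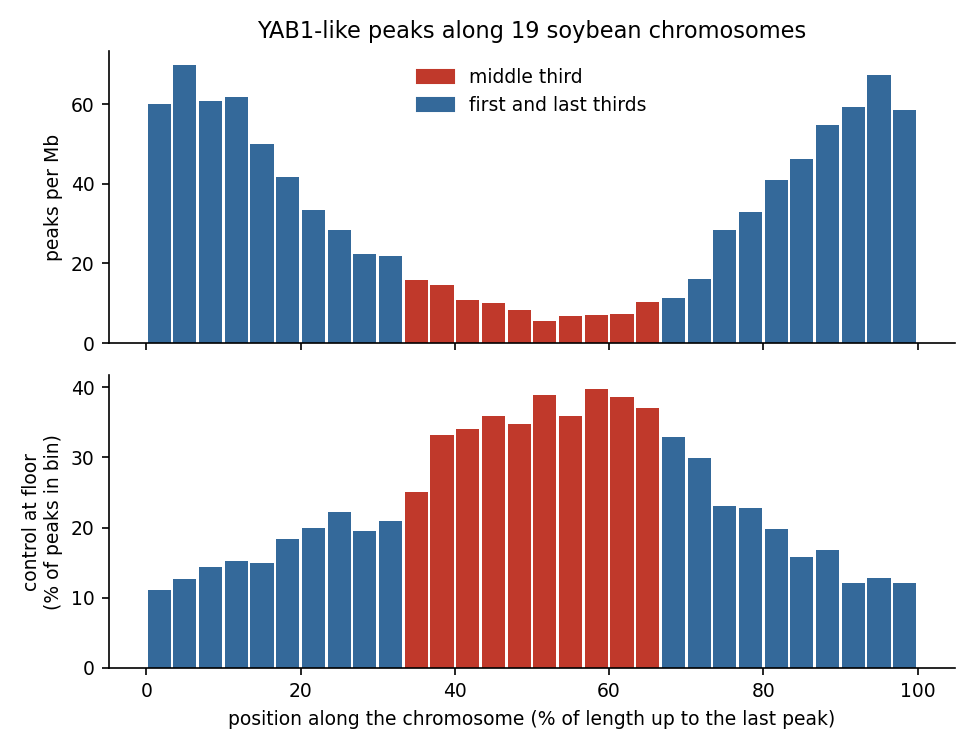
Peaks per Mb (top) and the percentage of peaks whose control was at the caller's genome-wide floor (bottom) in 30 equal bins along 19 chromosomes pooled, with position as a percentage of chromosome length up to the last peak. Red bars are the middle stretch and blue bars the outer stretches; density fell to 5.55 peaks per Mb just past the midpoint, where the control was at the floor for 38.9% of peaks.

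Density changed gradually along the chromosomes. Pooled over chromosomes, density fell from 69.9 per Mb near the chromosome start to 15.8 at the beginning of the middle stretch and to a minimum of 5.55 between 50% and 53.3% of the length. It then rose to 10.4 at the end of the middle stretch. Within 1 Mb of the first limit there were 325 sites inside and 430 outside, with median folds of 4.53 and 4.47. Within 1 Mb of the second limit there were 186 inside and 190 outside, with median folds of 4.41 and 4.58. Chromosome 13, which the rule left out, was unlike the others in its middle stretch, with 954 peaks at 62.5 per Mb.

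Sites inside the middle stretches were themselves unevenly placed. Of 281 windows of 1 Mb that lay wholly inside, the median held 6 sites (quartiles 3 and 13), 16 windows on 11 chromosomes held 0, and 61 windows held at most 2. At the other extreme 32 windows on 16 chromosomes held at least 20 sites, and these 11.4% of windows took in 38.7% of the sites counted in such windows. In the outer stretches 411 of 572 windows held at least 20 peaks and 7 held 0. The densest middle windows lay side by side on chromosome 8, with 61 sites at 16000001 to 17000000 and 69 at 17000001 to 18000000, and on chromosome 7, with 49, 45 and 49 sites in the 3 windows from 15000001 to 18000000. These windows are close to the lower limit of the stretch, where density was still falling. Coordinates count from 1 on the chromosomes as the peak list names them; its genome build is not stated.

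The longest empty interval inside a middle stretch was 2.42 Mb on chromosome 17, between summits at 20593349 and 23011806. Intervals of 1.97 Mb on chromosome 2, from 19463658 to 21436598, and of 1.96 Mb on chromosome 15, from 26953015 to 28910484, came next. In all, 39 intervals between neighbouring summits in the middle stretches exceeded 1000 kb, out of 2894. In the outer stretches 19 of 26007 did, and the longest there was 2644 kb.

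Although sites were sparse, the fold of those that were called did not differ detectably from that in the outer stretches. The caller's fold, (pileup + 1)/(expected pileup + 1) at the summit, had a median of 4.50 in the middle stretches (quartiles 3.92 and 5.39, range 2.45 to 21.3) and 4.51 in the outer stretches (quartiles 3.92 and 5.49). Per chromosome the middle stretch had the higher median on 11 and the lower on 8 of 19. The median of the differences was 0.025, with a 98.1% interval from -0.050 to 0.083 (exact two-sided sign test over chromosomes, p = 0.65, adjusted p = 0.97 over 6 tested differences). Median fold in the middle stretches ran from 4.17 on chromosome 3 to 4.66. All peaks had passed 1 cutoff, which leaves medians little room to differ, so this comparison cannot show whether binding at sites below the cutoff differed.

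**Figure D2:**
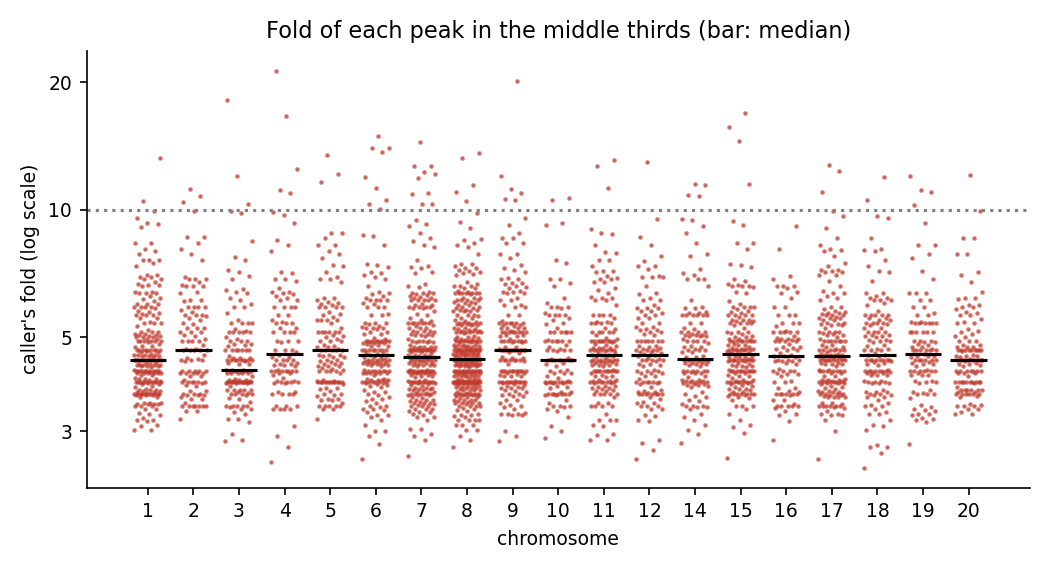
The caller's fold (log scale) of each of the 2913 sites in the middle stretches, by chromosome, with a bar at each chromosome's median and a dotted line at a fold of 10. Medians lie between 4.17 and 4.66, and the points above 10 number 70, with none on chromosome 16.

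The share of strong sites was close to that in the list as a whole. A fold of at least 10 was reached by 70 of the 2913 sites, 2.40% (Wilson 95% interval 1.91% to 3.02%), against 2.48% of all peaks in the list and 643 peaks, 2.47%, in the outer stretches. The middle share was higher on 7 chromosomes and lower on 12, and the median difference was -0.29 percentage points (98.1% interval -1.23 to 0.66; exact two-sided sign test, p = 0.36, adjusted p = 0.72). By count, chromosome 7 had most such sites, 10 of 238, then chromosome 6 with 9 of 167 and chromosome 9 with 6 of 172. The share on chromosome 4, 5 of 100, was above those of chromosomes 7 and 9. Chromosome 16, with the fewest middle sites, had 0 of 93, and its strongest site reached a fold of 9.15. Wilson intervals take each peak as independent, and many peaks were close neighbours. Of the 100 peaks of highest fold on the 19 chromosomes, 12 lay in the middle stretches, and the strongest of these ranked 11. This is near the 10.1% of all peaks on these chromosomes that lay there.

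The strongest site was on chromosome 4, at 20433027 to 20433666. There were 86 ChIP fragments over its summit against an expected pileup of 3.08, which is a ratio of 27.9 without the caller's pseudocount (95% interval 22.3 to 34.5, counting error of the ChIP pileup only). The expected value was the caller's floor, its genome-wide average, so no control window at this site exceeded that average. A further strong site lay in the same group, at 20430473 to 20431107, with 68 fragments and a ratio of 21.7 (16.8 to 27.5). These ranked 1 and 5 by fold, and their 1 Mb window held 15 sites in all.

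The second site by fold was on chromosome 9, at 20133426 to 20134400, with 91 fragments, an expected 3.55 and a ratio of 25.6 (20.6 to 31.4). The third was on chromosome 3, at 26331200 to 26331935, where 78 fragments gave a ratio of 23.3 (18.4 to 29.0), and the nearest other site was 105 kb away. The strongest sites were therefore found both inside a tight group and far from any other site. The intervals of these 3 sites overlap, so their order is not resolved at this depth.

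Chromosome 15 had 3 of the 10 sites of highest fold, of which 2 lay 60.7 kb apart. They were at 19505736 to 19506421, with a ratio of 18.7 (14.3 to 24.1), and at 19566260 to 19566884, with a ratio of 22.1 (17.1 to 28.0). The other was at 22889359 to 22889831, with 63 fragments over a control at the floor and a ratio of 20.5 (15.7 to 26.2). On chromosome 6 a pair of strong sites fell within 1 window of 33 sites, at 19257959 to 19258542 with a ratio of 17.4 (13.5 to 22.1) and at 19885289 to 19886087 with a ratio of 19.4 (14.8 to 25.0). The remaining site of the 10 was on chromosome 7, at 20409741 to 20410351, with 58 fragments and a ratio of 18.8 (14.3 to 24.4). The 10 sites were thus on 6 chromosomes, 3 had a control at the floor, and 4 had a neighbour within 2 kb. A strong peak on chromosome 2 that starts at 32313973 is not among them, because the middle stretch of that chromosome ended at 32300834.

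The strongest site of each chromosome's middle stretch ranged in fold from 9.15 on chromosome 16 to 21.3 on chromosome 4, with a median of 13.1. On chromosome 19, among the sparsest, it was at 30132344 to 30132969, where 48 fragments over a control at the floor gave a ratio of 15.6 (11.5 to 20.7), and the nearest other site was 60.0 kb away. On chromosome 10, also sparse, it was at 31625292 to 31625737, with 45 fragments and a ratio of 13.6 (9.90 to 18.2). On chromosome 8, the densest, it was at 21849357 to 21849890, with 57 fragments and a ratio of 17.6 (13.3 to 22.8). The intervals of these 3 sites overlap.

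Width did not differ detectably either. The median was 374 bp in the middle stretches (quartiles 292 and 506) and 374 bp in the outer stretches (quartiles 291 and 514). Per chromosome the middle median was higher on 10 and lower on 9, with a median difference of 4.5 bp (98.1% interval -14 to 18; exact two-sided sign test, p = 1, adjusted p = 1). The smallest width, 246 bp, was taken as the caller's fragment length, which is not stated. It was found at 186 sites, 6.39%, against 6.30% in the outer stretches. Widths above 1000 bp were found at 56 sites, 1.92%, against 2.43%, a difference that was not tested. The widest site was on chromosome 17, at 24168897 to 24171583, and spanned 2687 bp with a ratio of 16.0 (12.1 to 20.8) in a window of only 5 sites. Sites of 2349 bp and 1973 bp followed on chromosome 20, at 23415918 to 23418266 and at 19891214 to 19893186, with ratios of 7.12 (4.69 to 10.4) and 7.53 (5.04 to 10.8).

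The control differed from the outer stretches on all 19 chromosomes. The caller sets the expected pileup to the highest of a genome-wide average and the control in windows of fragment length, 1 kb and 10 kb. At 997 of the 2913 sites, 34.2% (Wilson 95% interval 32.5% to 36.0%), no window exceeded the average, so the expected pileup stood at its floor of 3.08 fragments. This held for 18.0% of all peaks in the list and for 16.3% (15.8% to 16.7%) in the outer stretches. Per chromosome the middle share ran from 23.0% on chromosome 8 to 49.1% on chromosome 10, and the outer share from 12.9% to 20.8%, so that the ranges did not overlap. The median difference was 18.7 percentage points (98.1% interval 14.3 to 25.1), with a higher share in the middle on 19 of 19 chromosomes (exact two-sided sign test, p = 3.8e-06, the smallest that 19 chromosomes can give, adjusted p = 1.1e-05). The median expected pileup was lower in the middle on all 19, by a median of 0.17 fragments (middle minus outer -0.17, 98.1% interval -0.24 to -0.083; exact two-sided sign test, p = 3.8e-06, adjusted p = 1.1e-05).

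The share with the control at the floor went with the local density of peaks. In windows of 1 Mb with 1 to 10 peaks, the control was at the floor for 40.1% of 825 middle sites (36.8% to 43.5%) and for 40.0% of 477 outer peaks (35.7% to 44.5%). With 11 to 20 peaks per window, the shares were 35.1% of 1001 and 33.6% of 1229. In these sparse windows the middle and outer shares were alike. With 21 to 40 peaks per window, the share was 34.2% of 631 middle sites (30.6% to 38.0%) and 24.3% of 3162 outer peaks (22.9% to 25.8%), and with 41 or more it was 21.7% of 456 (18.2% to 25.7%) and 13.5% of 21177 (13.1% to 14.0%). When the difference was taken within such classes on each chromosome, its median fell to 2.47 percentage points, with a higher share on 12 and a lower share on 7 of 19 chromosomes (exact two-sided sign test, p = 0.36, adjusted p = 0.72). The difference between middle and outer stretches was therefore not called by this test, which averages the classes of a chromosome without weights. In the 2 denser classes the pooled middle share was still higher, with intervals that did not overlap. These intervals take each peak as independent, and neighbouring peaks can share a control window. They may be too narrow, and they are not a test over chromosomes. The densest class has no upper limit, so densities in it are not alike: windows wholly inside held up to 69 peaks in the middle and 123 in the outer stretches. The median expected pileup, from the same values as the share at the floor, was 3.21 (middle) and 3.25 fragments (outer) with 1 to 10 peaks. It was 3.32 in both with 11 to 20 peaks, 3.30 and 3.37 with 21 to 40, and 3.37 and 3.47 with 41 or more. Its difference was not tested within classes.

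Across the 19 middle stretches, those with more sites per Mb had a smaller share with the control at the floor (Pearson r = -0.73, Spearman rho = -0.67). With the densest 2, chromosomes 7 and 8, left out, r was -0.55. This is a description over stretches of 1 library with a shared control.

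**Figure D3:**
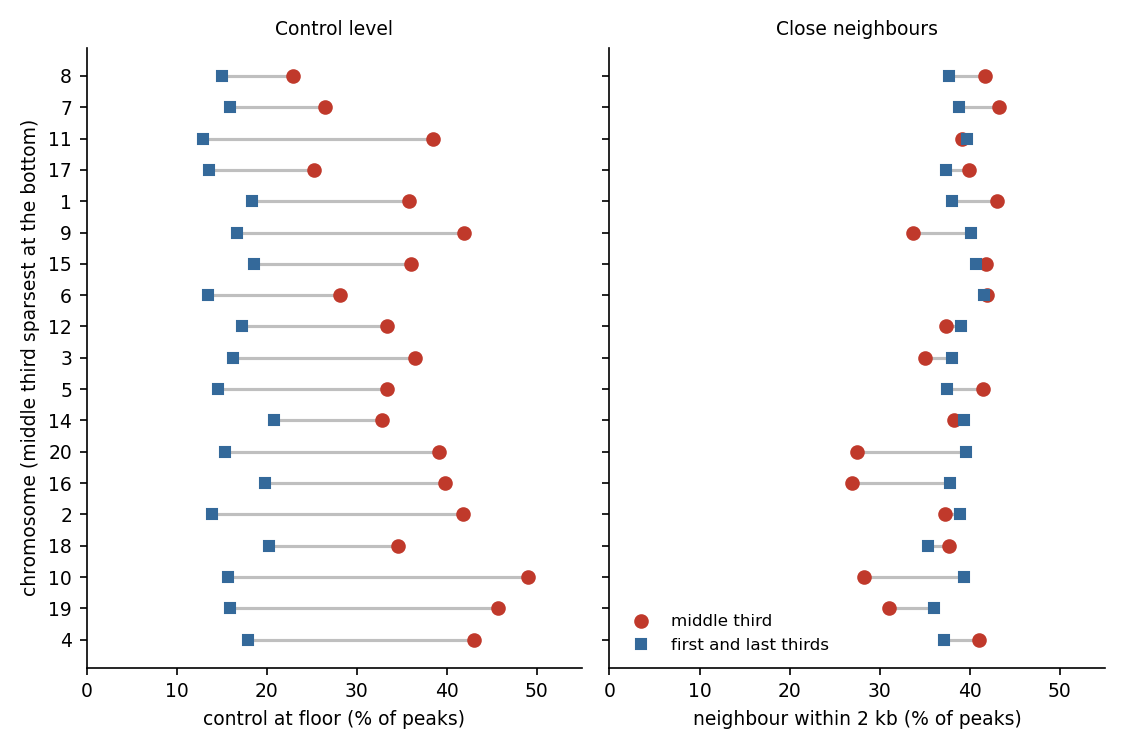
Percentage of peaks with the control at the floor (left) and with another summit within 2 kb (right), for the middle stretch (red circles) and the outer stretches (blue squares) of each of 19 chromosomes, ordered by peaks per Mb of the middle stretch. On the left every red circle lies to the right of its blue square; on the right the circles lie on both sides, with 9 higher and 10 lower.

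The kind of window that set the expected pileup differed as well. The 10 kb window set it at 12.0% of middle sites and 22.8% of outer peaks, and the share was lower in the middle on 19 of 19 chromosomes. The window of fragment length set it at 31.2% and 35.0%, lower in the middle on 17 of 19. For the 1 kb window the shares were 22.6% and 25.9%, lower in the middle on 13 of 19. These shares fall as the share at the floor rises, and they were not tested. A value that fitted both the 1 kb and the 10 kb step was counted under 1 kb. Among the 1916 middle sites above the floor alone, the fragment window set the value at 47.4% and the 1 kb window at 34.3%, both higher than in the outer stretches (41.8% and 30.9%), while the 10 kb window set it less often, at 18.3% against 27.2%.

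Sites with a high control were few. The expected pileup was at least 2 times the floor at 33 sites, 1.13% (0.808% to 1.59%), against 1.56% of all peaks in the list and 405 peaks, 1.56%, in the outer stretches. The highest were 2 neighbours on chromosome 15, at 17745270 to 17746021 with 11.1 fragments expected and 56 found, and at 17748444 to 17748970 with 9.95 expected and 60 found. Their ratios were 5.06 (3.82 to 6.57) and 6.03 (4.60 to 7.76), close to the median ratio of 5.52 for all middle sites. The third was a lone site on chromosome 10, at 19103972 to 19104340, with 9.55 expected and 43 found. It was the only site of its 1 Mb window, and its nearest neighbour was 711 kb away.

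Sites with the control at the floor had a higher median fold than the other sites. The 997 sites had a median fold of 4.66, against 4.45 in the 1916 sites with a higher control, and a median pileup of 18 against 20 fragments. In the outer stretches the medians of fold were 4.66 and 4.50. Of the middle sites at the floor 2.01% (1.30% to 3.08%) reached a fold of 10, against 2.61% (1.99% to 3.42%) of those above it. These intervals overlap, and in the outer stretches the order was the other way, 2.53% at the floor and 2.46% above it. A fold below 6 was found at 86.2% of the middle sites at the floor and 81.9% of those above it. At an equal pileup a lower control gives a higher fold, so the 2 classes are described and not compared by a test. Among the 70 sites with a fold of at least 10, 20 had the control at the floor, 28.6%, beside 34.2% of all middle sites. In the outer stretches it was 16.6% of the 643 strong peaks, beside 16.3% of all peaks there.

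Close neighbours were found in the pooled middle stretches at nearly the share seen elsewhere, while sites per Mb were far fewer. Another summit lay within 2 kb of 1115 of the 2913 sites, 38.3% (Wilson 95% interval 36.5% to 40.1%), against 38.7% of all peaks in the list and 38.6% in the outer stretches. Per chromosome the middle share ran from 26.9% on chromosome 16 to 43.3% on chromosome 7, and the outer share from 35.4% to 41.6%. Middle stretches with more sites per Mb had a larger share (Pearson r = 0.52, Spearman rho = 0.58). Without chromosomes 7 and 8, r was 0.47. This relation was not tested. The middle share was higher on 9 chromosomes and lower on 10, with a median difference of -0.54 percentage points (98.1% interval -4.98 to 3.85; exact two-sided sign test, p = 1, adjusted p = 1). The interval leaves room for a difference of several points in either direction. After peaks at most 500 bp apart had been joined into 1, the shares were 20.9% and 23.6%. The share was then lower in the middle on 15 of 19 chromosomes, with a median difference of -2.92 points. Joining takes out the closest pairs, and the lower density itself leaves fewer neighbours, so this is given as a value and not as a call.

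The distances parted at longer range. A neighbour within 500 bp was found at 5.53% of middle sites and 3.84% of outer peaks, higher in the middle on 15 of 19 chromosomes. This distance was added after the data were seen and after other distances had been tried, so no test is given for it. Within 5 kb the shares were 52.5% and 61.4%, lower in the middle on 18 of 19 chromosomes, and within 10 kb they were 62.3% and 77.0%, lower on all 19. These distances come from the same summit positions as the lower density, which alone leaves fewer neighbours at such range, so no test is given for them. At the far end, 272 sites, 9.34%, had no other summit within 100 kb, against 0.852% in the outer stretches. Nearest distances thus had a similar lower quartile, 1.16 kb in the middle and 1.21 kb in the outer stretches, but upper quartiles of 27.7 kb and 9.06 kb.

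**Figure D4:**
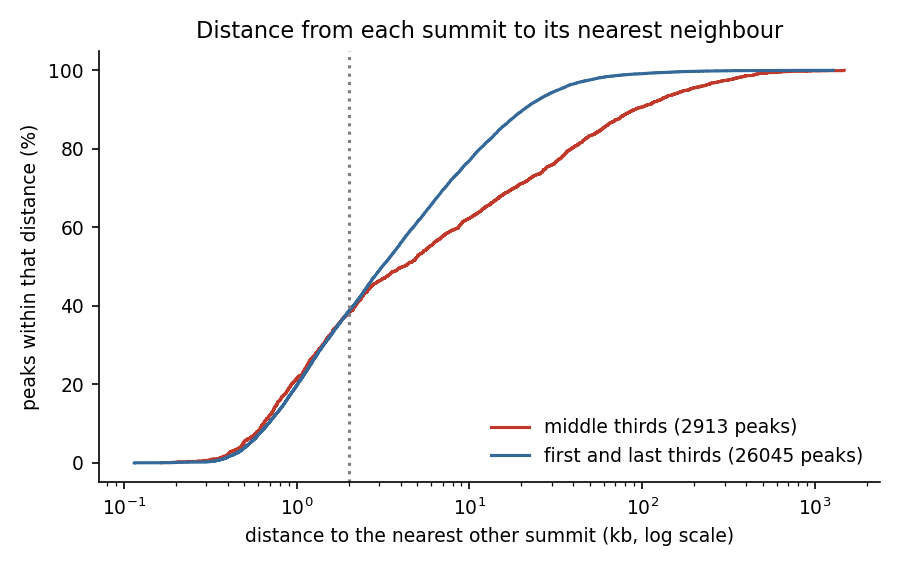
Cumulative percentage of peaks by distance to the nearest other summit (kb, log scale) for the 2913 sites of the middle stretches (red) and the 26045 peaks of the outer stretches (blue), with a dotted line at 2 kb. The middle curve is the higher at 500 bp, with 5.53% against 3.84%. The curves are at 38.3% and 38.6% at 2 kb, and the middle curve is the lower at 10 kb, with 62.3% against 77.0%.

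Within classes of window density, the pooled share with a close neighbour was higher in the middle, though not called over chromosomes. In windows with 11 to 20 peaks, 40.8% of middle sites (37.8% to 43.8%) and 33.9% of outer peaks (31.3% to 36.6%) had a neighbour within 2 kb. With 21 to 40 peaks the shares were 42.0% (38.2% to 45.9%) and 36.5% (34.8% to 38.2%), and with 41 or more they were 43.6% (39.2% to 48.2%) and 39.4% (38.8% to 40.1%). With 1 to 10 peaks they were 29.5% (26.4% to 32.7%) and 26.4% (22.7% to 30.5%). Taken within such classes on each chromosome, the median difference was 4.36 points, higher in the middle on 14 of 19 chromosomes, and it did not pass the test (exact two-sided sign test, p = 0.064, adjusted p = 0.13). This alternative was chosen after the data were seen. The intervals take each peak as independent, while both members of a close pair are counted, so they may be too narrow. The class of 41 or more has no upper limit, so densities in it are not alike.

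Most sites stood alone, and the rest were mainly in pairs. Sites were grouped where their summits lay at most 2 kb apart. The 2913 sites formed 1798 single sites, 376 pairs and 109 groups of 3 or more, so that 78.8% of groups were single sites, against 79.0% in the outer stretches. Groups per Mb were 7.59 in the middle and 33.7 in the outer stretches, a ratio of 4.43 that is close to the ratio of 4.47 for all peaks. Groups of 3 or more held 363 sites, 12.5%, against 14.3% in the outer stretches, a difference that was not tested. The largest group had 6 sites, against 12 in the outer stretches. Median fold was 4.50 both among single sites and among sites in groups of at least 2.

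The group of 6 was the one on chromosome 4 that held the strongest site, between 20430473 and 20436136. From first to last summit it spanned 4.86 kb. Its sites held 68, 19, 86, 23, 20 and 23 ChIP fragments in order along the chromosome, and their folds were 16.7, 2.76, 21.3, 5.41, 5.15 and 5.88. A pair of sites was thus much stronger than the other 4. The weak second site lay over the highest control of the group, with 6.26 fragments expected, while 2 of the 6 sites, the strongest among them, had the control at the floor. Groups of 5 lay on chromosomes 1, 4, 6, 11 and 15. The one on chromosome 6, at 21479516 to 21484220, had folds from 3.00 to 13.7, and the one on chromosome 4, at 32887379 to 32891422, had folds from 3.89 to 11.1. The other 3 had no site above a fold of 7.42.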

How the data were processed

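The data were 1 deposited list of peaks in narrowPeak format from the YAB1-like ChIP library. The tools named are MACS2, SAMtools 0.1.18 and Bowtie 0.12.7, per the submitters' processing notes. Settings, control library and genome build are not stated. The deposited fold is the caller's ratio of pileup to expected pileup, the deposited −log10 values are its q-value and p-value, and the authors' score column was not analysed. The lowest −log10 q-value was 2.03.

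Pileups were recovered as the whole number that gave both the fold and the p-value under a Poisson upper tail. They matched within 0.0001 for 100% of peaks; inversion and tests were tested on simulated data. Expected pileups within 0.0005 of 3.08 fragments counted as the floor. The others were assigned to the first window whose step they matched within 0.0004, tried in the order fragment length, 1 kb, 10 kb. Every multiple of the 1 kb step also fits the 10 kb step, so some values set by the 10 kb window may be counted under 1 kb. At the 10 kb step 6.75% of arbitrary values would match. The 1 kb and 10 kb steps were computed with 246 bp, the smallest peak width, as fragment length.

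Middle and outer stretches were compared per chromosome with an exact two-sided sign test over 19 chromosomes, Benjamini-Hochberg adjusted over 6 differences, with a threshold of 0.05. Intervals of median differences are order-statistic intervals. Named peaks are the 10 of highest fold, the 3 widest, the 3 of highest expected pileup, each chromosome's strongest, the densest and empty windows, the longest intervals and the largest groups; other examples were picked with their values in view. The sites, rule and tests were chosen with earlier results of these data known. Python 3.11.15, SciPy 1.17.1 and pandas 2.3.3 were used.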

Additional observations from a re-analysis of the deposited data

How the results depend on the processing

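Of 53 alternative values, those that leave out single chromosomes aside, 36 kept direction and side of the threshold (or, for density, stayed within counting error). The lower control in the middle stretches ended as a call under 1 alternative: within classes of window density the difference in share at the floor was 2.47 points. The difference in share with a neighbour within 2 kb was -2.92 points after merging peaks within 500 bp. Counted to 5 kb and to 10 kb the differences were -8.00 and -14.3 points. Merging takes out the closest pairs, and the lower density itself leaves fewer neighbours. These differences are therefore given as values and not as calls. The difference in neighbour share changed sign to 0.64 at a fold of at least 3 and to 1.96 for 1 kb. In alternatives added after seeing the data, it was 1.28 for 500 bp and 4.36 within density classes. Uncalled differences changed sign for width (-1 bp with −log10 q-values from 5 or from 10 upward, -0.5 with all 20 chromosomes), for the share with fold of at least 10 (0.082 from a −log10 q-value of 10 upward) and for median fold (-0.021 where the control was above the floor; 0 where it was at the floor and 0 with −log10 q-values from 5 upward, with more chromosomes lower than higher). The cause was not tested. The density ratio of middle to outer stretches, 0.224, was 0.195 from a −log10 q-value of 10 upward and 0.282 with all 20 chromosomes, as chromosome 13 has a dense middle. Leaving out each chromosome in turn gave 0.211 (without chromosome 8) to 0.230 for that ratio, 18.1 to 19.4 points at the floor, -0.17 to -0.16 fragments expected, 0.016 to 0.029 for median fold, -0.30 to -0.27 points for strong sites, -0.81 to -0.12 points for neighbours and -0.5 to 6.25 bp for width, with the same calls. No paired analysis was possible because no other replicate was used; stretches were paired by chromosome within 1 library. A median pileup of 19 fragments limits what can be said of single sites.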
